A study of Mus musculus with 16 samples.

Results

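The comparison set GFP+ cells against GFP- cells of the olfactory mucosa of S100a5-tauGFP mice that had inhaled 2-hexanone, a ketone with a short carbon chain. Its members were the 8 odor arrays of 16 arrays in the series, 4 of GFP+ and 4 of GFP- cells, and both fractions of a pool came from the same 3 mice. Mice of both sexes, 24 in all and 7 to 12 weeks old, were kept singly for 40 h in chambers under a clean air flow of 3.1 L/min. From 26 h on, the odor mice received 2-hexanone and the vehicle mice filtered air, for 10 s every 20 min. All groups carried the S100a5-tauGFP genotype, so the vehicle mice differed from the odor mice in what they inhaled and not in the reporter. Mucosa was dissociated and sorted by fluorescence into GFP+ and GFP- cells. Each array (Clariom S, mouse) was made from 50 to 100 ng of total RNA of 1 fraction of 1 pool, with 4 pools per treatment. The labels tie the GFP- fraction to no cell type beyond the absence of GFP.

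A sensory neuron of the nose uses a single receptor gene out of a very large family, and all its cilia carry that receptor. An odorant that binds the receptor raises cyclic AMP through an olfactory G protein, which opens ion channels and excites the cell. S100a5 is a small calcium-binding protein of these neurons, and its transcript level follows the activity of the neuron. In the S100a5-tauGFP mouse the S100a5 gene directs a green fluorescent protein, so GFP marks sensory neurons by their activity over the preceding hours. Omp, the olfactory marker protein, is found in mature sensory neurons whether or not they have been active.

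The gene that directs the reporter is shown by the 250 bases ahead of its start (mouse chr3:90608272-90608521, plus strand, GRCm38.p6, RefSeq), since the sort rests on it. Whether the reporter allele holds these bases was not analysed here. No TGACG, the core of the element to which the cyclic AMP response factor binds, was found in this window on either strand, against 17.8% of 32851 windows of the same length that hold it. Nothing about the factor follows from that.
S100a5: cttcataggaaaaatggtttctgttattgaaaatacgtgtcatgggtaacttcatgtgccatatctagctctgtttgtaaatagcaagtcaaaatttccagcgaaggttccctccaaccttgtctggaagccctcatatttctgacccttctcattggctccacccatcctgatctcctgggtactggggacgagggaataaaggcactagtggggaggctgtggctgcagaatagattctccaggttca

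S100a5 itself was at 16.92, 16.83, 16.17 and 16.98 on the log2 scale in GFP+ cells of odor pools 1 to 4 and at 15.18, 15.13, 14.89 and 15.23 in GFP- cells of the same pools. The 4 GFP+ arrays all lay above the 4 GFP- arrays. The means were 16.72 ± 0.38 and 15.11 ± 0.15 (SD, n = 4), and the difference of 1.61 (SE 0.25) gave an adjusted p of 9.83e-05 with limma over 22206 probe sets. That is a 3.06-fold difference, and the GFP- cells were thus far above the background of their arrays, which ran from 6.55 to 6.77. Omp was at 19.50, 19.45, 19.41 and 19.44 in GFP+ cells and at 19.49, 19.37, 19.23 and 19.34 in GFP- cells. The groups overlapped, and the difference of 0.09 (SE 0.14, limma adjusted p = 0.733) did not pass the test. Both values lie close to the highest of the series, 19.81. With every array centred on its own median the Omp difference became 0.44 and passed (limma adjusted p = 0.0196).

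Over all 22206 probe sets that are no controls, 1175 (5.29%) were higher and 2124 (9.56%) lower in GFP+ cells at an adjusted p below 0.05, 3299 (14.9%) in all. The median difference was 0.14. Both counts shift with the scaling: 1855 were higher and 2010 lower after quantile normalization, and 8534 higher and 1724 lower with each array centred on its median, which moved the median of all differences to 0.49. The medians of the GFP+ arrays lay at 5.709 to 5.764, those of the GFP- arrays at 6.057 to 6.113, and 39.84% to 45.05% and 44.7% to 46.65% of the probe sets lay above the background floor, the highest of 23 background probe groups of the array. For gene lists with arrays centred, the counts below stand beside 8534 of 22206 higher. Without pool 2 the higher count of all probe sets was 727 and without pool 4 it was 702. Of the 3299 calls, 828 (25.1%) lay under the floor on all 8 arrays. The 4 GFP+ and the 4 GFP- values did not overlap for 4432 (20%) of the 22206 probe sets. Deposited log2 values reached 19.81, above the 16 bits of a scanner, so they are not plain scanner signals. How they were scaled is not stated, and folds carry that uncertainty. In bulk RNA, fewer cells of a type and less RNA per cell cannot be told apart.

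Odorant receptors, the genes the sort was made to find, stood on both sides of the comparison. Of 1080 receptors, 391 (36.2%) were higher in GFP+ cells and 235 (21.8%) lower, against 5.29% and 9.56% of all probe sets. They made up 33.3% of all higher calls, 11.1% of the lower calls and 4.86% of the probe sets. The median receptor difference was 0.48 (0.14 over all probe sets), and the middle 80% of receptors spanned -3.17 to 2.85 (-0.77 to 0.58 over all). With every value under the background floor raised to it, the receptor median was 0.10 and that of all probe sets 0.02. On that scale the 10878 probe sets under the floor on all 8 arrays differ only by the floors. The mean floors were 6.73 for GFP+ and 6.71 for GFP- arrays, so the median of all probe sets then says little about expression.

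**Figure D1:**
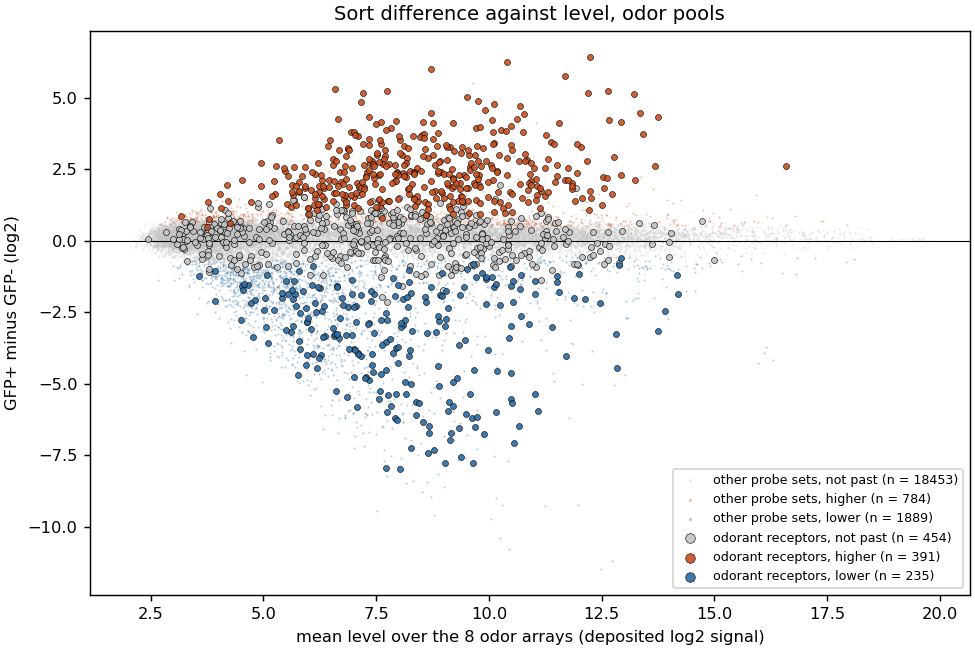
Difference of mean log2 level, GFP+ minus GFP- cells of the odor pools (vertical axis), against the mean log2 level over the 8 odor arrays (horizontal axis), 1 point per probe set, with odorant receptors coloured. Receptors reach 6.43 above and -7.99 below zero, and other probe sets extend to -11.48 below but to no more than 5.53 above.

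Size separated odorant receptors from most other named genes on the higher side. Of the 391 receptors that were higher, 379 differed by at least 1 log2 unit, 238 by at least 2 and 11 by at least 5. Of the 700 other named genes that were higher, 143 differed by at least 1, 9 by at least 2 and 0 by at least 5. On the lower side the other genes reached as far: 115 of 1695 fell by at least 5 log2 units, beside 47 of 235 receptors.

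Many receptors were measured in 1 fraction alone. Above the floor on all 4 GFP+ arrays and on no GFP- array lay 71 probe sets, and 62 of them were receptors. The mirror pattern, above the floor on all 4 GFP- arrays and on no GFP+ array, held for 554 probe sets, of which 82 were receptors. Among the 440 receptors above the floor on all 8 arrays, 178 were higher and 63 lower, with a median of 0.66, against 634 and 457 of 8257 probe sets and a median of 0.17. A further 161 receptors lay under the floor on all 8 arrays. The 4 pools gave median receptor differences of 0.52, 0.58, 0.43 and 0.56, and each pool by itself had the sign of the fit for 622 to 625 of the 626 receptors called. The calls were made from these same pools, so the shared signs follow largely from the selection and are no separate support.

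The receptor with the largest rise was Olfr309 (family MOR251, chromosome 7), at 15.92, 14.75, 15.85 and 15.35 in GFP+ and at 10.15, 8.29, 10.09 and 7.61 in GFP- cells. Every GFP+ array lay over 4 log2 units above every GFP- array, and the difference of 6.43 (SE 0.56, limma adjusted p = 1.05e-07) is 86.3-fold. Olfr536 (MOR252, chromosome 7) was at 13.66, 13.42, 12.76 and 14.32 in GFP+ and at 7.47, 7.13, 7.04 and 7.46 in GFP- cells. Its groups lay at least as far apart, with a difference of 6.27 (SE 0.30, limma adjusted p = 6.19e-11), or 76.9-fold. Its family member Olfr533 rose by 5.75, or 53.7-fold, from 8.65 to 9.09 in GFP- cells to 13.88 to 15.07 in GFP+ cells. Olfr110 (MOR249, chromosome 17) was at 12.92, 10.62, 12.51 and 10.81 in GFP+ cells and, under the floor on each array, at 6.30, 4.94, 6.19 and 5.44 in GFP- cells. Against the floor the receptor was higher by at least 32-fold (means 11.72 and 5.72, limma adjusted p = 3.26e-08). Olfr522 (MOR103, chromosome 7) varied little within the GFP+ arrays, at 15.65, 15.77, 15.85 and 15.83, and was at 11.09, 10.24, 11.16 and 10.09 in GFP- cells, 35-fold lower.

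The other 10 receptors with the largest rises differed by 4.70 to 5.31. Olfr15 (MOR256) was 37.4-fold, Olfr60 (MOR253) 36.3-fold, Olfr1463 (MOR202) 27.3-fold and Olfr745 (MOR106) 26.1-fold higher in GFP+ cells, each above the floor on all 8 arrays. Olfr372, Olfr481, Olfr494 and Olfr981 lay under the floor on every GFP- array and were at least 5.76, 12.6, 8.4 and 7.35-fold higher. Olfr472 passed the floor on 3 of 4 GFP- arrays and Olfr491 on 2 of 4; after raising the rest to the floor they were 29.5-fold and 26.9-fold higher. Olfr481, Olfr494, Olfr472 and Olfr491 all belong to family MOR204.

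At the other end, Olfr878 (MOR163, chromosome 9) was at 5.61, 3.06, 3.62 and 3.87 in GFP+ and at 12.48, 12.08, 11.56 and 11.98 in GFP- cells. All GFP+ values lay under the floor, and the receptor was at least 39.3-fold lower in GFP+ cells (difference -7.99, SE 0.42, limma adjusted p = 1.6e-10). Olfr99 (MOR156, chromosome 17) was at 6.61, 5.65, 4.87 and 5.87 in GFP+ and at 13.39, 13.34, 13.89 and 13.47 in GFP- cells. Its bound was the largest among these receptors, at least 111-fold lower in GFP+ cells (difference -7.77, SE 0.28, limma adjusted p = 2.24e-12). Olfr1297 (MOR248, chromosome 2) stayed above the floor on all 8 arrays, at 7.82, 6.71, 7.09 and 6.49 in GFP+ and at 15.12, 14.09, 13.80 and 13.33 in GFP- cells. The groups lay over 5 log2 units apart and the mean was 133-fold lower in GFP+ cells (difference -7.06, limma adjusted p = 6.22e-09). Olfr1507, long used in work on how a neuron chooses its receptor, was at 4.83, 4.45, 4.82 and 5.67 in GFP+ and at 13.39, 13.09, 9.80 and 13.17 in GFP- cells. Pool 3 was the low one in GFP- cells, and the receptor was at least 49.7-fold lower in GFP+ cells, or 89.8-fold without that pool (difference -7.42, limma adjusted p = 9.71e-08).

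The remaining 11 of the 15 largest falls ran from -7.94 to -6.52. Olfr677, of the class I family MOR32, was at least 31-fold lower in GFP+ cells, and Olfr1384, of the same family as Olfr15, at least 86.1-fold. Olfr390 (MOR135), Olfr826 (MOR210), Olfr1406 (MOR267), Olfr1030 (MOR196) and Olfr460 (MOR120) were also under the floor on all GFP+ arrays, with bounds of 52.4, 36.2, 59.6, 55.7 and 58.8-fold. Olfr1213, Olfr1447, Olfr794 and Olfr411 passed it on 1 of 4 GFP+ arrays; after raising the rest to the floor they were 71.4, 83.9, 33.2 and 69.7-fold lower. None of these 15 receptors, nor of the 15 with the largest rises, lost its call when 1 pool was left out. They were picked by their differences in these same pools, so the kept calls follow largely from the choice and are no separate support.

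**Figure D2:**
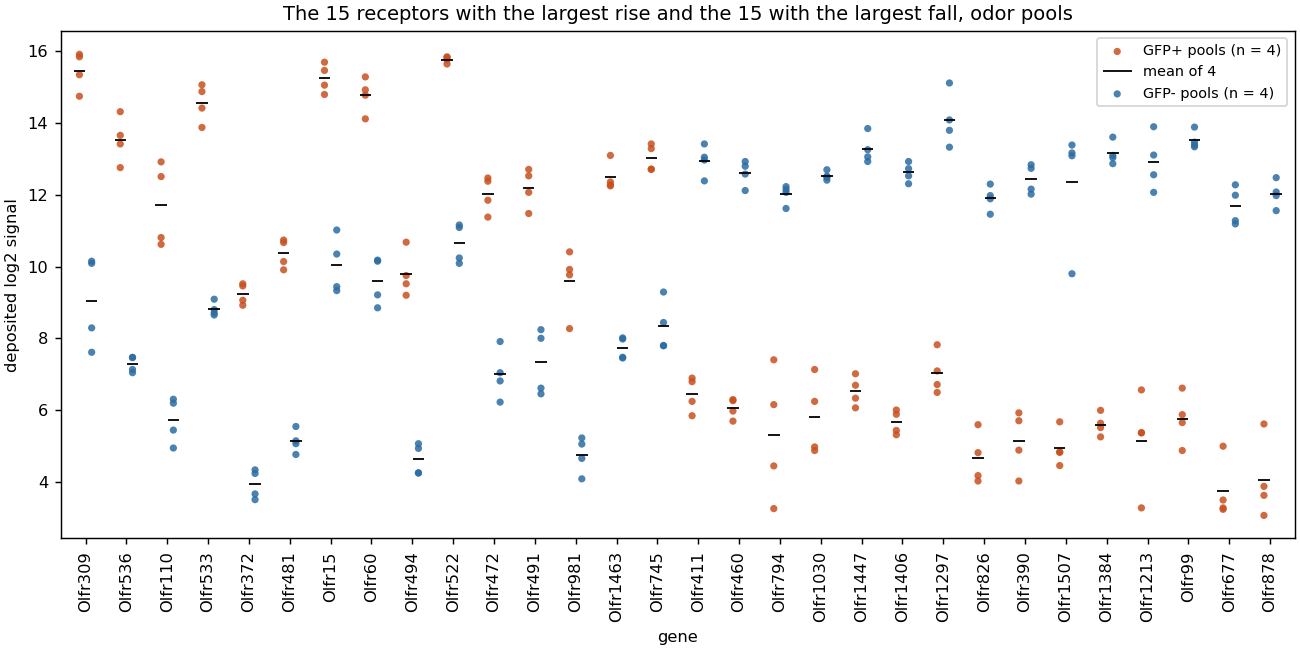
Deposited log2 level on each of the 8 odor arrays for the 15 receptors with the largest rise and the 15 with the largest fall among those called, 1 point per array, GFP+ and GFP- in separate colours. For each of the 30 receptors the GFP+ points lie wholly to 1 side of the GFP- points, and the lone GFP- value of Olfr1507 at 9.80 is that of pool 3. The receptors were picked by these differences, so the lack of overlap follows from the choice.

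Odorant receptors fall into class I, the older class with close relatives in fish, and class II, and into families of related sequence given by MOR numbers. Both classes moved in both directions: 35 of 119 class I receptors were higher and 15 lower (median 0.43), and in class II 351 of 939 rose and 211 fell (median 0.50). Of the 22 receptors without a class, 5 were higher and 9 lower. Among 41 families with at least 8 members measured (565 receptors), 28 held both higher and lower members, 9 only higher and 4 only lower ones besides those that did not pass. Cross-hybridisation between near-identical receptors of a family was not tested, so values of close relatives may not be separate.

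Families with most members higher included MOR106 (10 of 13, median 2.70), MOR253 (8 of 10, 2.67), MOR283 (8 of 12, 2.07), MOR223 (8 of 9, 1.89) and MOR224 (8 of 10, 1.88). In MOR253, MOR283, MOR223 and MOR224 no member passed the test in the other direction. The lone lower member of MOR106 was Olfr736, at 6.26, 6.70, 5.67 and 5.88 in GFP+ and at 10.10, 9.26, 10.02 and 9.96 in GFP- cells, a fall by 3.71. It sits in the family of Olfr745, whose GFP+ arrays were at 12.71 to 13.42 and whose GFP- arrays were at 7.79 to 9.29. Among MOR224 receptors the largest rise was that of Olfr148 (3.64). MOR182 (7 higher and 1 lower of 10) and MOR177 (8 and 2 of 12) also leaned to the GFP+ side.

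Families with more lower than higher members included MOR225 (7 of 11 lower, median -3.75), MOR135 (11 of 17 lower and 1 higher, -1.83), MOR32 (5 of 10 lower and 1 higher, -1.41), MOR261 (5 of 11 lower, -0.77) and MOR245 (7 of 21 lower, -0.32). Others were MOR114 (6 lower and 1 higher of 13, -0.80), MOR218 (5 and 3 of 10, -0.99) and MOR233 (5 and 3 of 17, -0.52). In MOR225, MOR261 and MOR245 no member was called higher. Olfr1178 was the lowest of MOR225, under the floor on all GFP+ arrays and at least 19.5-fold lower there. The largest families were split: MOR256 had 20 higher and 7 lower of 48, MOR171 12 and 8 of 35, MOR204 14 and 5 of 31, and MOR202 13 and 7 of 30. MOR256 thus held both Olfr15, 37.4-fold higher, and Olfr1384, at least 86.1-fold lower in GFP+ cells.

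**Figure D3:**
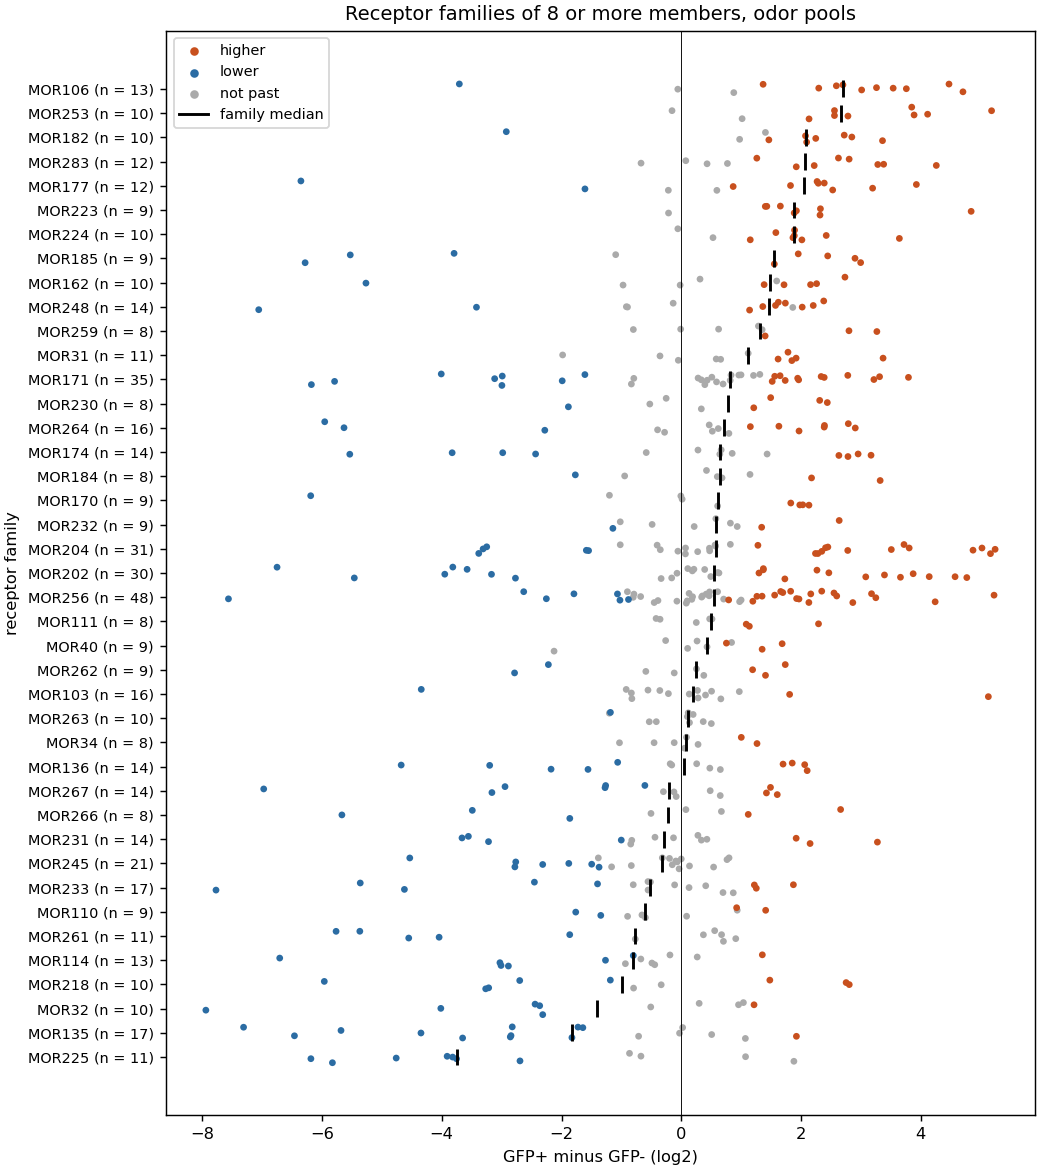
Difference of mean log2 level, GFP+ minus GFP- cells, for each receptor of the 41 families with at least 8 members, 1 point per receptor and a bar at the family median, families sorted by median. Medians run from 2.70 in MOR106 to -3.75 in MOR225, and points of opposite sign share most families.

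Receptor genes lie in clusters, and the balance differed between chromosomes. On chromosome 16, 21 of 36 receptors were higher and 4 lower (median 1.74), and on chromosome 14, 23 of 39 and 7 (median 1.45). On chromosome 10, 11 of 65 were higher and 23 lower (median -0.43), and on chromosome 6, 2 of 27 and 9 (median 0.03). The 3 chromosomes with most receptors had 106 higher and 59 lower of 282 (chromosome 2), 85 and 36 of 230 (chromosome 7), and 55 and 24 of 129 (chromosome 9). No test was made between chromosomes, since neighbouring receptors are related in sequence.

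Among 1063 pairs of receptors adjacent on a chromosome, both were called in 368, and 248 of these (67.4%) had the same direction, 178 both higher and 70 both lower. Of all 626 receptors called, 62.5% were higher. That is not the share of unrelated pairs that would have the same direction, which was not worked out here. Where the neighbours belonged to 1 family the share was 71% (154 of 217), and where they belonged to different families 62.4% (78 of 125), a gap that was not tested. The other pairs with both called show how sharply neighbours can differ. On chromosome 1, Olfr231 and Olfr424 are adjacent and both of family MOR105. Olfr231 was at 5.78, 5.21, 3.03 and 5.0 in GFP+ and at 11.36, 10.59, 10.78 and 10.23 in GFP- cells, at least 16.1-fold lower in GFP+ cells. Olfr424 was at 12.64, 12.10, 12.93 and 11.03 in GFP+ and at 8.5, 7.99, 7.26 and 8.10 in GFP- cells, 18.6-fold higher. The order of the fractions is thus reversed between the 2 genes on all 8 arrays. Olfr1447 and Olfr1448 of MOR202 on chromosome 19 differed likewise, with -6.75 and 3.39, as did Olfr728 and Olfr729 of MOR246 on chromosome 14, with -6.47 and 3.18.

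Trace amine-associated receptors (Taars) are a small second family of olfactory receptors, for amines, clustered on chromosome 10. Of 15, 4 (26.7%) were higher and 2 (13.3%) lower in GFP+ cells (median 0.71), against 5.29% and 9.56% of all probe sets. On all 8 arrays 4 of the 15 lay under the floor. Taar4 was at 9.98, 10.45, 10.24 and 8.86 in GFP+ and at 6.73, 6.78, 6.60 and 6.49 in GFP- cells. All GFP+ arrays were higher, and with the 2 GFP- arrays under the floor raised to it the receptor was 8.7-fold higher (difference as deposited 3.23, limma adjusted p = 7.01e-07). Taar9 was at 12.85, 12.35, 12.23 and 10.75 in GFP+ and at 9.76, 8.80, 9.48 and 8.26 in GFP- cells, 7.83-fold higher (limma adjusted p = 0.000271). Taar2 went the other way: it was at 7.56, 7.44, 6.93 and 6.0 in GFP+ and at 9.42, 10.03, 9.29 and 9.28 in GFP- cells (difference -2.52, limma adjusted p = 1.08e-05). Taar7b rose by 2.41, Taar7e rose by 1.45 and Taar7f fell by 1.23, and each of these 3 calls was lost in some fit over 3 pools. Taar7b differed by 1.95 without pool 3 (limma adjusted p = 0.0573), and Taar7f by -0.94 without pool 2 and -1.02 without pool 4 (0.167 and 0.132). Taar7e differed by 1.5, 1.42, 1.61 and 1.28 in pools 1 to 4, and by 1.46 and 1.40 without pool 2 or 3 (0.0598 and 0.0613). Taar3 (1.59, adjusted p = 0.0829), Taar6 (-0.27) and Taar7d (-0.89) did not pass. With the pool as a block 6 to 8 Taars were higher, Taar3 among them (adjusted p = 0.018 to 0.0428), and without pool 3 only 2 were.

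Vomeronasal receptors belong to another organ, and 198 of 199 of the first type and 119 of 120 of the second lay under the floor on all 8 arrays. The test called 5 and 2 of them higher (2.51% and 1.67%, against 5.29% of all probe sets), at levels at which the arrays measure no order. Their medians were 0.22 and 0.27, beside 0.14 over all probe sets. The counts ran from 2 to 4 and from 1 to 2 when pool 1, 2, 3 or 4 was left out. With the pool as a block they ran from 7 to 9 and from 6 to 8, and 1 of the first type was lower. With arrays centred 62 of the first type and 44 of the second were called higher, beside 8534 of all 22206 probe sets.

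Genes whose transcripts follow the activity of olfactory neurons, mostly surface proteins that help axons of 1 receptor converge in the olfactory bulb, moved with S100a5 in part. Of 12 measured, 6 were higher and 2 lower (median 1.12). S100a5 itself, on which the sort rests, is among the 12 and among the 6. Lrrc3b, a leucine-rich repeat membrane protein, was at 13.22, 14.61, 13.66 and 14.95 in GFP+ and at 11.06, 12.58, 11.21 and 12.62 in GFP- cells. Pools 2 and 4 were high in both fractions, and GFP+ cells were 4.74-fold higher on average (limma adjusted p = 0.00127). Pcp4l1, a small peptide gene related to the calmodulin regulator Pcp4, was at 14.71, 14.46, 14.25 and 14.50 in GFP+ and at 12.18, 12.46, 12.15 and 12.20 in GFP- cells. Its pools hardly differed and its groups lay 4.7-fold apart (limma adjusted p = 9.73e-05). The adhesion protein gene Pcdh10 was at 11.21, 11.46, 11.38 and 12.86 in GFP+ and at 9.09, 9.40, 8.79 and 10.99 in GFP- cells, with pool 4 high in both fractions. GFP+ cells were 4.46-fold higher (limma adjusted p = 0.00473).

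Sema7a, an axon guidance signal, was 2.68-fold and Epha5, a guidance receptor, 2.32-fold higher in GFP+ cells. Calb2, which encodes the calcium buffer calretinin, had by far the largest difference of the group. It was at 10.82, 10.16, 10.30 and 9.78 in GFP+ and at 15.63, 15.18, 15.13 and 15.23 in GFP- cells, 32.7-fold lower in GFP+ cells (limma adjusted p = 4.76e-11). The groups lay over 4 log2 units apart. The adhesion gene Kirrel3 fell by 0.59 (limma adjusted p = 0.0149), a call lost without pool 1, 2 or 4 (0.0579, 0.0853 and 0.0799) or with arrays centred (0.214), so the lower count was then 1. Kirrel2, a related adhesion gene known to follow activity in the opposite direction, was 1.03 higher without passing (adjusted p = 0.116). It was at 14.56, 15.26, 14.69 and 15.39 in GFP+ and at 13.46, 14.17, 13.79 and 14.35 in GFP- cells, 0.90 to 1.10 higher within each pool, and passed with the pool as a fixed block (adjusted p = 0.000499 over all arrays and 0.0023 over the odor arrays). Pcdh17 (0.71, adjusted p = 0.0955) passed in the fits blocked by pool (0.0188 to 0.0469), and Efna5 differed by 0.02.

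Of 31 genes for axon sorting and guidance, which include these, 6 were higher and 1 lower (median 0.30). Plxna3, a receptor for repulsive signals, was at 11.32, 11.96, 11.46 and 12.01 in GFP+ and at 10.52, 11.05, 10.70 and 11.26 in GFP- cells (1.75-fold, limma adjusted p = 0.00736). The higher count was 4 without pool 2 or pool 4, 8 to 10 with the pool as a block and 18 with arrays centred. Protocadherins, adhesion proteins of neurons, had 9 of 31 higher (median 0.50), with Pcdh10, Pcdh7 (2.92-fold) and Pcdh8 (2.76-fold) the largest. Without pool 4 that count was 4, and with arrays centred 25. Of 10 genes with zonal expression across the mucosa, 1 (10%, against 5.29% of all probe sets) was higher (median 0.12). That count was 0 when pool 1, 2, 3 or 4 was left out and 0 to 2 with the pool as a block.

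The transduction cascade itself differed little between the fractions. Of 11 core genes, Ano2, the calcium-activated chloride channel of the cilia, alone passed as higher (3 were higher at an unadjusted p below 0.05), and the median was 0.28. Over all 22206 probe sets 5.29% passed as higher, and 3066 were higher at that unadjusted p. Ano2 was at 17.91, 17.69, 17.59 and 17.63 in GFP+ and at 17.33, 17.04, 16.89 and 16.81 in GFP- cells (limma adjusted p = 0.012). The groups did not overlap, but the call was lost without pool 2 or pool 4 (0.0546 and 0.0717). Adcy3, the cyclase, was 0.41 higher without passing (adjusted p = 0.0698, or 0.0398 if pools enter as a random block), and Gnal and Gnb1, its G protein subunits, differed by 0.06 and 0.11. Stoml3, a ciliary membrane protein, was at the top of the scale in both fractions, and its difference was 0.02. With each array centred on its median 9 of the 11 were higher, and 2 were if pools enter as a random block.

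Of 10 genes that end the response, 4 (40%) were higher and 1 (10%) lower (median 0.40), against 5.29% and 9.56% of all probe sets. Slc8a1, a sodium and calcium exchanger, was at 12.18, 10.94, 11.59 and 11.27 in GFP+ and at 10.49, 9.79, 9.92 and 9.86 in GFP- cells (2.8-fold, limma adjusted p = 0.00339). Pde1c, the ciliary phosphodiesterase that removes cyclic AMP, was at 16.12, 15.79, 15.71 and 15.97 in GFP+ and at 14.98, 15.05, 14.56 and 14.61 in GFP- cells (2.14-fold, limma adjusted p = 0.0002). In both genes every GFP+ array was above every GFP- array. Pde4a, another phosphodiesterase, was 1.77-fold higher. The lower member, the receptor kinase gene Grk3, lay under the floor on all 8 arrays and gets no fold. With arrays centred 8 of the 10 were higher.

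Of 7 genes that help receptors reach the membrane, none passed in limma, 0 also at an unadjusted p below 0.05 (median 0.15, with 3 higher after centring). Of 18 regulators of receptor choice, 2 (11.1%, against 9.56% of all probe sets) were lower (median 0.14). Lbr, the nuclear envelope protein that is silenced as receptor genes gather, was at 9.92, 9.65, 10.39 and 9.97 in GFP+ and at 12.17, 12.22, 11.99 and 12.27 in GFP- cells, 4.53-fold lower in GFP+ cells. It is also a gene of leukocytes, whose markers were higher in the GFP- fraction (values below), and the part of leukocytes in its value was not tested. The lower count was 1 without pool 1 or pool 3. Of 15 mature neuron markers 4 were higher (median 0.41), 2 without pool 2 or pool 4 and 12 with arrays centred. The largest rise was that of Kcnmb3, a potassium channel subunit, at 14.01, 14.87, 14.35 and 14.99 in GFP+ and 12.33, 12.87, 12.65 and 13.09 in GFP- cells (3.53-fold, limma adjusted p = 0.000159).

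**Figure D4:**
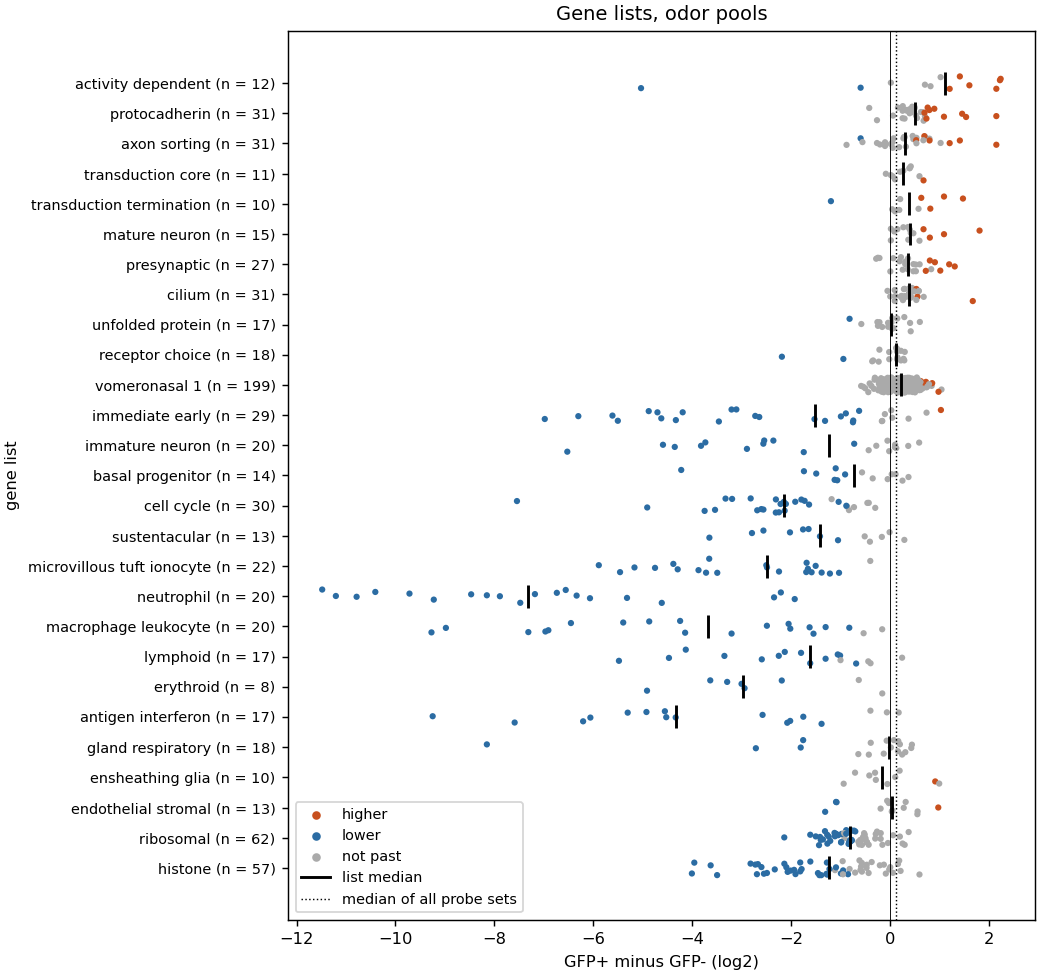
Difference of mean log2 level, GFP+ minus GFP- cells, for the genes of 27 lists, 1 point per gene and a bar at each list's median, with the median of all probe sets (0.14) as a dotted line. Neutrophil, antigen presentation and macrophage genes lie farthest below zero, with medians of -7.33, -4.33 and -3.67, and the activity-dependent genes have the highest median, 1.12. The activity-dependent list includes S100a5, on which the sort rests.

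Genes of the presynaptic release machinery had 6 of 27 higher (median 0.36). Syn2, a synaptic vesicle protein, was at 14.19, 13.71, 13.47 and 13.68 in GFP+ and at 12.68, 12.47, 12.37 and 12.27 in GFP- cells (2.49-fold, limma adjusted p = 0.000386). Syt4, a calcium sensor of vesicles, was 2.3-fold and Sv2a, a vesicle glycoprotein, 1.89-fold higher. Syn1 was 1.66-fold higher, a call lost without pool 4 (adjusted p = 0.0549). The list count was 4 without pool 2, 3 without pool 4, 8 to 10 with the pool as a block and 21 with arrays centred.

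Of 16 genes of dense-core vesicles, which store peptides, 4 (25%) were higher and 3 (18.8%) lower (median 0.37). Over all probe sets the shares were 5.29% and 9.56%. Ptprn, a vesicle membrane protein, was at 8.63, 8.40, 8.57 and 8.51 in GFP+ and at 6.90, 6.11, 6.22 and 5.76 in GFP- cells, of which 1 was above the floor. With the other 3 raised to it the gene was 3.31-fold higher in GFP+ cells (difference as deposited 2.28, limma adjusted p = 1.34e-05). Chgb, a granin, was 2.08-fold higher. Pam, a peptide-processing enzyme, and Cadps2, a release factor, went the other way, at least 13.3-fold and 2.31-fold lower in GFP+ cells. The higher count was 2 without pool 2, 3 or 4 and 9 with arrays centred.

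Regulators and subunits of the sodium pump gave 2 higher (25%) and 1 lower (12.5%) of 8 (median 0.28). Over all probe sets the shares were 5.29% and 9.56%. Fxyd2, a small regulator of the pump, was at 10.70, 9.30, 9.77 and 9.18 in GFP+ and, under the floor, at 6.41, 6.13, 6.69 and 5.78 in GFP- cells. Its GFP+ level was at least 8.13-fold higher (means 9.74 and 6.25, limma adjusted p = 5.41e-05), and every GFP+ array lay above every GFP- array. Its relative Fxyd6 was lower, by 1.5 as deposited and 2.79-fold with the 1 GFP+ array under the floor raised to it. The higher count was 1 without pool 2 or pool 4.

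Of 87 potassium channel genes 8 (9.2%) were higher and 7 (8.05%) lower (median 0.19), against 5.29% and 9.56% of all probe sets, and 65 lay under the floor on all 8 arrays. Kcnn2, a calcium-activated channel, was at 12.53, 12.93, 12.66 and 13.18 in GFP+ and at 11.05, 11.35, 11.55 and 11.74 in GFP- cells (2.64-fold, limma adjusted p = 2.1e-05). Kcng1, a modifier subunit, reached the floor on 2 GFP- arrays and, with the rest raised to it, was 3.06-fold higher. Kcnk1, a leak channel, was at least 1.26-fold lower, and with values under the floor raised to it no longer passed. On that scale 0 of the 87 were lower. The counts fell to 3 higher and 2 lower without pool 4, to 5 and 4 without pool 2 and to 4 and 4 without pool 3, and 4 were lower without pool 1. With arrays centred 40 were higher, against 8534 of all 22206 probe sets. Of 10 sodium channel genes 2 (20%) were higher (median 0.30). Scn4b, an auxiliary subunit, was 2.13-fold and Scn8a, a pore-forming subunit, 1.73-fold higher. Of 25 calcium channel genes 1 (4%) was higher (median 0.30), 0 without pool 1, 2 or 4, and 1 was lower with the pool as a fixed block.

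Among 31 genes of cilium assembly, 3 (9.68%, against 5.29% of all probe sets) were higher (median 0.39). That count was 1 without pool 1 or pool 2, 2 to 8 with the pool as a block and 26 with arrays centred. On the centred scale 8534 of all 22206 probe sets were higher. The transcription factor gene Rfx4 was at 9.16, 8.73, 8.97 and 9.07 in GFP+ and at 7.69, 7.24, 6.92 and 7.37 in GFP- cells (3.21-fold, limma adjusted p = 1.37e-06), and its groups did not overlap. Of 18 calcium sensors, 4 (22.2%) were higher and 3 (16.7%) lower (median 0.23), S100a5 and Calb2 among them. Over all probe sets the shares were 5.29% and 9.56%. Necab1, a neuronal calcium-binding protein, was 2.34-fold higher. S100a11, a relative of S100a5 found in many cell types, was at 5.38, 5.86, 5.12 and 5.63 in GFP+ and at 12.69, 12.76, 13.47 and 13.67 in GFP- cells, at least 85.6-fold lower in GFP+ cells. The higher count was 2 without pool 2, 3 or 4, and the lower count 4 to 5 with the pool as a block. Outside the lists, Cidea, a lipid droplet protein, was 3.35-fold and Slc7a8, an amino acid transporter, 3.28-fold higher in GFP+ cells.

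Immediate early genes are switched on within minutes in active neurons and in many other stimulated cells. In this comparison they were mostly lower in GFP+ cells: of 29, 21 were lower and 1 higher (median -1.52). Fos, the best known of them, was at 10.17, 11, 10.35 and 11.14 in GFP+ and at 15.14, 15.84, 14.96 and 15.51 in GFP- cells. The groups were about as far apart in every pool, and the mean was 26-fold lower in GFP+ cells (difference -4.70, SE 0.26, limma adjusted p = 3.62e-10). Egr2, a zinc finger factor, was at 5.25, 5.89, 6.0 and 5.77 in GFP+, under the floor, and at 11.95, 13.74, 11.97 and 13.17 in GFP- cells. It was at least 63-fold lower in GFP+ cells (limma adjusted p = 6.19e-11). Nptx2, a synaptic pentraxin, was 0.75 higher without passing (adjusted p = 0.0891), and passed with the pool as a block (0.0173 to 0.0476).

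Windows ahead of immediate early genes are shown with the element that calcium and growth signals use in such genes, in capitals. The windows hold the 250 bases before the start (GRCm38.p6, RefSeq), for Zfp36 mouse chr7:28379229-28379478 on the minus strand and for Btg2 chr1:134079156-134079405 on the minus strand. Capitals mark a CArG box, the site class of serum response factor, 58 bases before the Zfp36 start, and TGACGTCA, the full cyclic AMP response element, 166 bases before the Btg2 start.
Zfp36: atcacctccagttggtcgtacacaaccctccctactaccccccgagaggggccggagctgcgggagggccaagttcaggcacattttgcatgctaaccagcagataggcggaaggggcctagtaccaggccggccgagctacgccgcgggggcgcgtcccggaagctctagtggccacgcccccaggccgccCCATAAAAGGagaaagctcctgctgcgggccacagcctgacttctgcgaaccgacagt
Btg2: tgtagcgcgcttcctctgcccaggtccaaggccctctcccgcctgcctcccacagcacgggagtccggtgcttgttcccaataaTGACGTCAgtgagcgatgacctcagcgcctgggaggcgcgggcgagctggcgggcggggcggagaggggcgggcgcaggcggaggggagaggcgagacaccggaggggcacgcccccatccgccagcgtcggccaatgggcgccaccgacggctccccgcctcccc

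Of 27025 genes with a window of that length, 1.62% held a CArG box, 1.77% TGACGTCA and 5347 the shorter TGACG that lies within it, searched on both strands. Of 23 immediate early genes with a window 2 held the CArG box, 2 held TGACGTCA and 16 held TGACG. A match in letters is no proof of a site in use. Zfp36, an RNA-binding protein that destabilises inflammatory messages, was at 6.33, 6.40, 5.11 and 6.46 in GFP+ and at 12.30, 12.22, 12.20 and 12.78 in GFP- cells. With the 3 GFP+ arrays under the floor raised to it the gene was 49.5-fold lower in GFP+ cells. Btg2, an antiproliferative gene, was at 5.85, 6.59, 5.54 and 6.73 in GFP+ and at 11.04, 11.81, 11.91 and 11.94 in GFP- cells, 28.5-fold lower with the 2 arrays under the floor raised. Both genes were lower in GFP+ cells in all pools. Ier3 and Nr4a3 were at least 14.2-fold and 5.05-fold lower, or 22.3-fold and 8.07-fold without pool 1.

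The 1 higher member, Npas4, a factor induced by neuronal calcium, was at 3.03, 3.94, 4.32 and 4.74 in GFP+ and at 2.69, 2.78, 3.06 and 3.35 in GFP- cells. All 8 values lay under the floor, the groups overlapped, and its call (limma adjusted p = 0.0253) was lost without pool 2, 3 or 4 (0.108, 0.11 and 0.0809) and with the odor arrays alone (0.0505). With the pool as a block 2 members were higher. The mean level of the 29 genes was 7.29 to 7.68 over the GFP+ and 9.47 to 10.14 over the GFP- arrays. On the same arrays the mean level of 20 neutrophil genes was 4.59 to 5.07 and 11.71 to 12.29, and that of 20 macrophage and leukocyte genes 4.53 to 4.95 and 8.57 to 8.99. Leukocytes also express immediate early genes, and their part in the result was not tested.

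**Figure D5:**
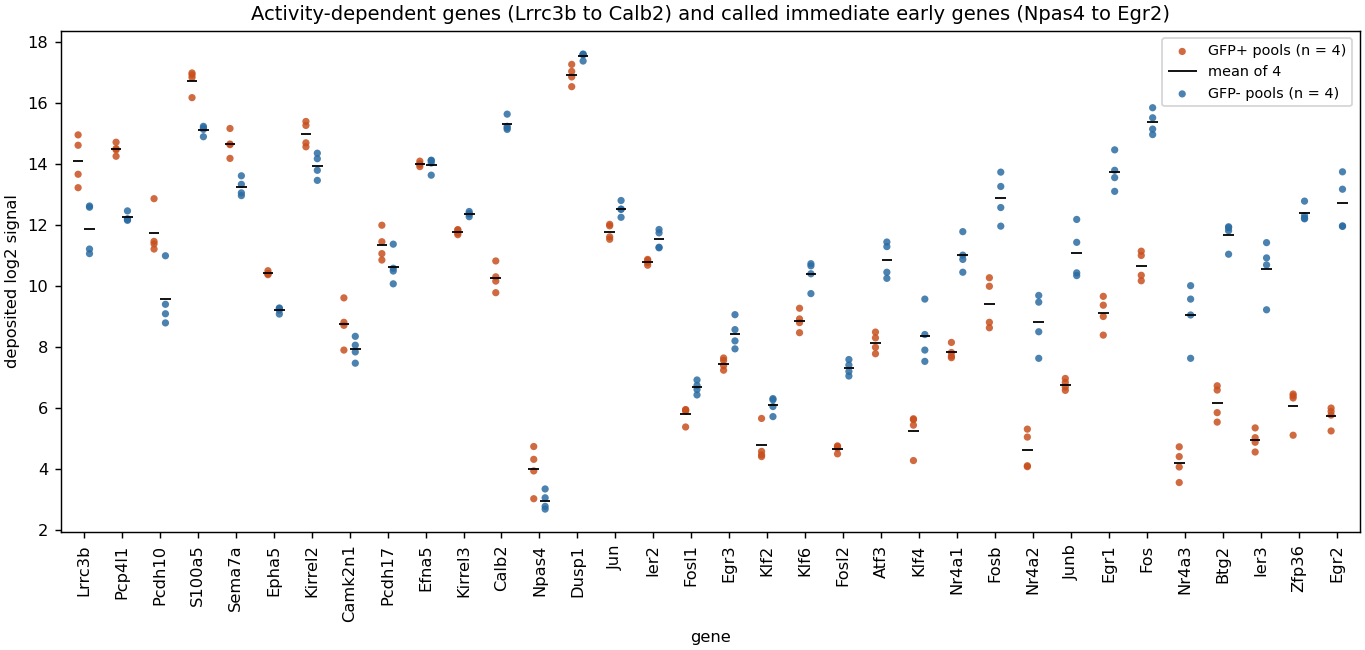
Deposited log2 level on each of the 8 odor arrays for activity-dependent genes and for immediate early genes that were called, 1 point per array, GFP+ and GFP- in separate colours. S100a5, Lrrc3b, Pcp4l1 and Pcdh10 are higher and Calb2, Fos and Egr2 lower on all GFP+ arrays.

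The largest differences of the comparison were in transcripts of neutrophils, a short-lived leukocyte. All 20 neutrophil genes were lower in GFP+ cells (median -7.33), and 17 of them lay under the floor on all GFP+ arrays. Lcn2, a granule protein that binds iron carriers, was at 7.23, 5.55, 6.20 and 7.95 in GFP+ and at 18.28, 17.96, 18.27 and 18.36 in GFP- cells. With the 3 GFP+ arrays under the floor raised to it, Lcn2 was 2190-fold and the granule gene Ngp, above it on 3 arrays, 2180-fold lower in GFP+ cells. Retnlg was at least 554-fold and S100a8, which encodes a subunit of calprotectin, at least 423-fold lower. S100a9, its partner, was above the floor on 1 GFP+ array and fell by 9.22 as deposited.

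Of 20 macrophage and general leukocyte genes 18 were lower (median -3.67), with 18 under the floor on all GFP+ arrays. Spi1, a master regulator of myeloid cells, was at 6.35, 5.20, 5.54 and 5.55 in GFP+ and at 14.38, 14.34, 14.75 and 15.08 in GFP- cells, at least 241-fold lower in GFP+ cells. Lyz2, the lysozyme gene, fell by 9.27 as deposited, with 2 GFP+ arrays above the floor. C1qa lay under the floor on all 8 arrays. Of 17 lymphoid genes 13 were lower (median -1.61; list levels 4.43 to 4.58 and 6.26 to 6.70), among them Cd79a of B cells, at least 11.7-fold. Cd3e of T cells was under the floor on all GFP+ arrays and above it on 2 GFP- arrays. Of 8 erythroid genes 6 were lower (median -2.97), Rhag and Alas2 at least 3.03-fold and 3.19-fold.

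Antigen presentation and interferon-induced genes, which leukocytes and epithelia express, had 14 of 17 lower (median -4.33; list levels 5.75 to 5.96 and 9.43 to 9.75). Ly6e was at 8.02, 6.94, 7.02 and 7.44 in GFP+ and at 16.42, 16.74, 16.42 and 16.83 in GFP- cells, 608-fold lower in GFP+ cells. B2m, the light chain of class I antigen molecules, was 73.7-fold lower, and Ifitm2 and H2-Aa were at least 94.6-fold and 17.1-fold lower. The part of immune cells in these values was not tested.

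Many genes of younger neurons and dividing cells were also lower in GFP+ cells. Of 20 immature neuron genes 11 were lower (median -1.23, list levels 8.90 to 9.31 and 10.73 to 10.95). The other 9 did not pass, Tubb3, Stmn2 and Lhx2 among them, and differences in the list reached up to 0.60. With arrays centred 3 of the 20 were higher. Gap43, a growth cone protein and the usual marker of that stage, was at 7.64, 6.48, 7.43 and 7.20 in GFP+ and at 9.64, 9.06, 9.81 and 9.64 in GFP- cells, 5.11-fold lower. Dpysl3, another growth cone protein, was 14.1-fold lower, and Sox11 fell by 2.89. Gng8, a G protein subunit of immature neurons, Nhlh1, a transcription factor of newly formed neurons, and Cxcr4, a chemokine receptor also found on leukocytes, were at least 5.39, 5.7 and 18.2-fold lower. Of 14 basal cell and progenitor genes 7 were lower (median -0.73, list levels 4.26 to 4.46 and 5.04 to 5.42), 3 without pool 2. On all 8 arrays 11 of the 14 lay under the floor, and with values raised to it 2 were lower. Kit was at least 2.54-fold lower, and Krt5, Krt14 and Trp63, which define horizontal basal cells, lay under the floor on all 8 arrays. Of 30 cell cycle genes 23 were lower (median -2.13; 5.24 to 5.47 and 7.11 to 7.82), Mki67 at least 29-fold.

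Of 13 genes of sustentacular cells, the supporting cells of the epithelium, 8 were lower (median -1.41; list levels 6.85 to 7.09 and 8.14 to 8.45). Cyp2g1, their cytochrome P450, was at 13.58, 14.41, 13.49 and 13.31 in GFP+ and at 15.62, 15.63, 15.21 and 15.33 in GFP- cells, 3.37-fold lower, and stayed far above the floor in GFP+ cells. Sult1c1 was 6.9-fold and Krt18 at least 6.61-fold lower. Of 22 microvillous, tuft and ionocyte genes 21 were lower (median -2.49; 5.04 to 5.28 and 7.73 to 8.24), Hepacam2 at least 25.1-fold and the ionocyte factor Foxi1 by 4.38 as deposited. Of 24 genes for xenobiotic metabolism 11 were lower and 2 higher (median -0.61), the latter 0 when pool 1, 2, 3 or 4 was left out and 1 over the odor arrays with the pool as a fixed block. The detoxifying enzyme genes Gstm1, Cyp2a5 and Cyp2f2 were 4.61, 4.05 and 3.55-fold lower. Of 18 gland and respiratory genes 4 were lower and 14 did not pass (median -0.02; 4.66 to 5.07 and 5.37 to 5.86). Ltf, also a neutrophil gene, was at least 74.7-fold lower, and Bpifa1 was above the floor on 1 GFP- array alone and did not pass with values raised to the floor (adjusted p = 0.971).

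Of 9 genes of sensory neurons with other signalling, 3 were lower (median 0.08; list levels 6.60 to 6.97 and 7.59 to 8.04). Gnai2, a G protein subunit of vomeronasal neurons that leukocytes share, was at least 56.5-fold lower, and Pde2a, of the guanylyl cyclase neurons, 6.49-fold with the 3 GFP+ arrays under the floor raised. Of 13 endothelial and stromal genes 1 (7.69%) was higher and 3 (23.1%) lower (median 0.04, list levels 4.25 to 4.49 and 4.28 to 4.53). Without pool 1 or pool 2, 1 was lower. On all 8 arrays 12 of these 13 lay under the floor. Of 10 ensheathing glia genes 1 (10%) was higher (median -0.16, list levels 4.56 to 4.67 and 4.42 to 4.94), 0 without pool 2, 3 or 4. With the pool as a block 1 to 2 were higher and 1 to 2 lower. On all 8 arrays 9 of these 10 lay under the floor. Over all probe sets 5.29% were higher and 9.56% lower. Pecam1 and Cdh5 of endothelium and Sox10 of glia lay under the floor on all 8 arrays. The part of these cell types in the other results was not tested.

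Most of the same receptors separated the fractions in the vehicle mice, whose pools and arrays are distinct from those of the odor mice. Vehicle GFP+ against GFP- arrays gave 1295 probe sets higher (5.83%) and 2189 lower (9.86%), 3484 in all (15.7%). Of the receptors, 353 were higher in both comparisons (90.3% of those higher in odor and 90.7% of those higher in vehicle), 216 lower in both (91.9% and 90.4%), and 0 were called in opposite directions. The same overlap over all probe sets was 57.3% and 52% for higher and 87.5% and 84.9% for lower calls. S100a5 differed by 1.38 in vehicle and 1.61 in odor, Calb2 by -5.15 and -5.03 and Fos by -4.44 and -4.70.

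The change of the sort difference, odor minus vehicle, passed in limma for 2 of 22206 probe sets (0.00901%), both receptors. At an unadjusted p below 0.05 it passed for 650 of the 22206, of which 41 were among the 1080 receptors. Both shares lie under what a threshold of 0.05 gives without any change, so neither count shows weaker changes. Olfr191 (MOR183, chromosome 16) was at 15.23, 14.68, 14.72 and 15.43 in GFP+ and at 10.94, 10.84, 10.67 and 10.95 in GFP- cells of the odor pools, a difference of 4.16. In vehicle its difference was 2.12, so the change was 2.04 (SE 0.28, limma adjusted p = 0.0116). Olfr1494 (MOR266, chromosome 19) was at 10.13, 11, 10.22 and 10.45 in GFP+ and at 10.67, 10.89, 11.02 and 11.24 in GFP- cells, groups that overlap. Its difference was -0.51 in odor and -3.28 in vehicle, a change of 2.77 (SE 0.38, limma adjusted p = 0.0116). Olfr1494 thus passed with no rise above the GFP- cells, and with a smaller deficit than in vehicle. Neither change passed when any of the odor pools 1 to 4 was left out or with the pool as a fixed block. Olfr193, a neighbour of Olfr191 in the cluster on chromosome 16, changed from 1.23 to 3.38 (change 2.15, adjusted p = 0.121), and Olfr195 in the same cluster from -4.53 to -0.95 (change 3.58, adjusted p = 0.888). Neither of these passed. Among the receptors with the largest rises in odor, Olfr309, Olfr536 and Olfr522 differed by 6.28, 6.09 and 5.34 in vehicle, and Olfr15 by 3.86, with changes whose adjusted p was 1.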

How the data were processed

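Levels were log2 signals, 1 per probe set, as the authors deposited them. Per the submitters' processing notes they were made with Affymetrix Expression Console; the sources used here name neither a version nor the summarisation method nor the annotation build. Of 28846 rows, 6640 control rows were left out and 22206 tested. The platform annotation gave 1 symbol to 19572 probe sets (19505 genes) and none to 2634; all 19572 gene identifiers matched the reference gene table, which gave MOR families, class (numbers up to 42 as class I) and gene order.

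Groups and pool numbers came from the sample titles. In R 4.3.3, limma 3.58.1 (lmFit and eBayes) fitted 4 group means over all 16 arrays (12 residual degrees of freedom), with Benjamini-Hochberg adjustment over 22206 probe sets and a threshold of 0.05, checked on simulated data. The contrasts were GFP+ against GFP- in odor, the same in vehicle, and their difference. The number of arrays limits the precision. No 2 arrays held the same values (highest Pearson r = 0.992). Each array's background floor was the highest of its 23 antigenomic background bins (6.16 to 7.33). A fold is a bound if the dimmer group had no array above its floor: the brighter group's mean over all its arrays against the mean of, per array of the dimmer group, the higher of floor and value.

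The labels give both fractions of a pool the same mice. Within odor pools 1 to 4, deviations of the paired arrays from their group means had correlations of 0.425, 0.075, 0.161 and 0.109 (consensus over all pools 0.171). The main fit had no block; blocked fits (pool random or fixed) appear beside a result if they alter its call or move a count by over 1.5 times.

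The 45 gene lists (33 of named genes with 613 entries, 61 without a value here, and 12 by symbol pattern) and the comparison itself were chosen with earlier results of these data known, so their counts support nothing by themselves. Each list count stands beside 5.29% higher and 9.56% lower over all probe sets. The rule for named genes took Omp and S100a5; the 15 highest and 15 lowest receptors and other genes past the threshold with the brighter group above the floor on all 4 arrays; up to 6 members past the threshold and 3 others per list; the highest and lowest member per family; and the 10 changes of lowest p. The text names a part of these. Npas4, Gap43, Olfr1448, Olfr729, Krt5, Krt14, Trp63, Cdh5, Sox10 and C1qa fall outside that rule; Npas4, Olfr1448 and Olfr729 were chosen after their values were seen, and the others are defining markers. Promoter windows are RefSeq's (GRCm38.p6). The planned comparison of receptors by protein was not run. Plots used Python 3.11.15 and matplotlib 3.10.9.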

Additional observations from a re-analysis of the deposited data

Results flagged for a closer look

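Of 286 groups of 4 arrays looked at for the genes named here, 11 (3.85%) held a value far from the other 3 by Dixon's test, where chance gives about 5%. They were spread over pools 1 (3 values), 2 (2), 3 (3) and 4 (3). Among GFP+ arrays these were Olfr1463 at 13.10 and Olfr677 at 4.99 in pool 1, Stoml3 at 19.73 and Zfp36 at 5.11 in pool 3, and Pcdh10 at 12.86, Hepacam2 at 4.73 and B2m at 8.07 in pool 4. Among GFP- arrays they were Btg2 at 11.04 in pool 1, Olfr736 at 9.26 and Adcy3 at 17.75 in pool 2, and Olfr1507 at 9.80 in pool 3, where its other pools were at 13.09 to 13.39.

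A difference between treatments in the sort effect passed limma's test for Olfr191, with a change of 2.04, and for Olfr1494, with a change of 2.77.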

How the results depend on the processing

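Over 16 alternative settings, 123 of the 143 genes followed kept their side of the threshold and their direction, 10 lost a call somewhere, 10 gained one and 0 reversed, with S100a5 among those kept. Receptors higher numbered 338 to 537 and lower 199 to 264. All probe sets higher were 1855 after quantile normalization, 8534 with arrays centred and 702 to 803 with 1 pool left out; those lower were 1095 with values raised to the floor and 1674 to 1855 with 1 pool left out. With the pool as a replicate block, 1735 (random), 1398 (fixed, odor arrays) or 1516 (fixed, all arrays) were higher and 2348, 2298 or 2231 lower. The receptor median was 0.58 after quantile normalization, 0.83 centred, 0.63 without the lowest 40% of probe sets, 0.10 raised to the floor and 0.46 to 0.52 with 1 pool left out; that of all probe sets was 0.49 centred and 0.02 raised. Omp passed when centred (0.44, adjusted p = 0.0196). The change between treatments had 0 calls with the fixed block and 0 in each fit with 1 pool left out. Of 88 list counts, 29 stayed within 1.5 times everywhere, 41 moved with centring, 24 with raising to the floor and 12, 25, 14 and 22 without pools 1 to 4. Raised to the floor, lower counts included 11 for cell cycle, 11 for microvillous, 10 for macrophage, 3 for lymphoid, 2 for basal and progenitor, 3 for erythroid, 2 for gland, and 0 for endothelial, growth factor and potassium channel genes; genes under it on all 8 arrays have no value there. List medians that changed sign were receptor choice (-0.01 without pool 4, -0.01 to 0.13 over the pools left out), gland (0.33 centred), ensheathing glia (0.19 centred, 0.20 without the lowest 40%), other sensory neurons (-2.24 without the lowest 40%), unfolded protein response (-0.03, quantile), heat shock (0.30 centred) and growth factors (-0.06 without the lowest 40%). Pairing by protein was not run. The cause of these shifts was not tested beyond fewer arrays or probe sets.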

Other observations

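Genes of general cell functions were looked at in the same comparison. Of 62 ribosomal protein genes 35 were lower in GFP+ cells (median -0.80, beside 0.14 over all probe sets), 23 without pool 2 and 23 with arrays centred on their medians. Their mean level was 10.77 to 11.13 over the GFP+ and 11.44 to 11.93 over the GFP- arrays. Rplp0, a protein of the ribosomal stalk, was at 8.22, 8.84, 8.74 and 8.67 in GFP+ and at 10.14, 11.34, 10.43 and 11.10 in GFP- cells, 4.38-fold lower. Of 57 histone genes, most of them of the clusters copied with dividing DNA, 33 were lower (median -1.22). H2ac15 was 15.5-fold lower, and H1f1, under the floor on all GFP+ arrays, at least 4.44-fold. On the same arrays 23 of 30 cell cycle genes were lower; their part in the histone values was not tested.

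Of 79 genes of the respiratory chain 4 (5.06%) were higher and 1 (1.27%) lower (median 0.23), against 5.29% and 9.56% of all probe sets. The higher count was 1 without pool 1, 2 or 3 and 0 without pool 4, 2 to 7 with the pool as a block and 52 with arrays centred. Of 38 proteasome genes 1 (2.63%) was higher and 2 (5.26%) lower (median 0.15), with 0 higher without pool 2 and 22 with arrays centred. Of 17 genes of the unfolded protein response 1 (5.88%) was lower (median 0.04), 0 without pool 4, and 1 was higher with the pool as a fixed block over all arrays. Of 9 heat shock genes 2 (22.2%) were lower (median -0.05), 0 without pool 2 or pool 4 and 1 without pool 3. Of 16 growth factor genes 3 (18.8%) were lower (median 0.19), 1 without pool 2, 3 or 4, and 12 lay under the floor on all 8 arrays. Of 12 calmodulin kinase genes 0 passed in limma, while 4 were higher at an unadjusted p below 0.05 (median 0.18), 1 passed if pools entered as a random block, or as a fixed one over the odor arrays, and 4 with arrays centred. Over all probe sets 3066 of 22206 were higher at that unadjusted p. With arrays centred 8534 of the 22206 passed as higher.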
